A study of Mus musculus with 24 samples.

Results

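Gut hormones and chromogranins were followed as 10 genes, Chga, Chgb, Gcg, Sct, Cck, Gip, Sst, Nts, Pyy and Tac1, a list given by name and matched to the 45513 genes of the count files by gene ID and GRCm38 symbol. Each of the 10 matched 1 gene. RNA was counted in 24 libraries of sorted mouse intestinal epithelium, 6 from each of 4 groups, which were the small intestine (SI) and the colon of WT mice and the same organs of 9S/T-A mice. The adult mice, of both sexes and on a C57BL/6 background, were homozygous for Atoh1(WT)CreERT2 or for Atoh1(9S/T-A)CreERT2, in which 9 serine or threonine residues of the transcription factor ATOH1 were replaced by alanine, and all carried the R26RtdTom reporter. A tamoxifen-activated Cre was expressed from the Atoh1 locus in both genotypes, so the WT mice carried the modified locus too. Every mouse received 3 mg of tamoxifen once, and EpCAM+ tdTom+ live cells were sorted the following day from crypt-enriched fractions of the proximal SI and of the colon. The gate therefore selected cells by epithelial marker and Atoh1 reporter, not by any hormone. A day after tamoxifen, the paper found no reporter in chromogranin A-positive enteroendocrine cells of either genotype. Such cells carried it by day 4. Within each group the libraries were numbered 2 to 7.

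Enteroendocrine cells are scattered hormone-secreting cells of the gut lining that arise from secretory progenitors in the crypt, where ATOH1 and then NEUROG3 act. They store peptide hormones in dense-core granules together with the chromogranins, and release them in response to nutrients and other luminal stimuli. Subtypes are classically told apart by their main hormone and have preferred positions along the gut, with glucose-dependent insulinotropic peptide in the proximal SI and peptide YY in the distal gut.

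The promoters of Gcg, Sct and Tac1 are shown because these were the members for which genotype or the difference in genotype effect between tissues passed the test. They were taken from RefSeq (GRCm38.p6) and run from 250 bases before to 50 bases after the start of the gene, 5′ to 3′ on the strand of the gene. The Gcg window was chr2:62483604-62483903 on the minus strand, the Sct window chr7:141279084-141279383 on the minus strand, and the Tac1 window chr6:7554811-7555110 on the plus strand. Capitals mark CAGATG or CAGCTG, hexamers of the E-box type that basic helix-loop-helix factors such as ATOH1 and NEUROD1 recognise, searched on both strands. No match overlapped another.
Gcg: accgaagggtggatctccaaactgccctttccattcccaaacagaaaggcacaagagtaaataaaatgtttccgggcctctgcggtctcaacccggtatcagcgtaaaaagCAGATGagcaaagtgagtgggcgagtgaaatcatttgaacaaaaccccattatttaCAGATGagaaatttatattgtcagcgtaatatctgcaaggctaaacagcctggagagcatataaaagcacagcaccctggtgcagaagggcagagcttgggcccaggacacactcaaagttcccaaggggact
Sct: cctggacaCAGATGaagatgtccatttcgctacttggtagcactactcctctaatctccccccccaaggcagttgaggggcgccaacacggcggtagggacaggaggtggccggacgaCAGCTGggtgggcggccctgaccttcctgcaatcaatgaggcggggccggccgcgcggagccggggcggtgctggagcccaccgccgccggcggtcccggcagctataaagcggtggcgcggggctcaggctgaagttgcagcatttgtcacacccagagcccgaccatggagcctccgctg
Tac1: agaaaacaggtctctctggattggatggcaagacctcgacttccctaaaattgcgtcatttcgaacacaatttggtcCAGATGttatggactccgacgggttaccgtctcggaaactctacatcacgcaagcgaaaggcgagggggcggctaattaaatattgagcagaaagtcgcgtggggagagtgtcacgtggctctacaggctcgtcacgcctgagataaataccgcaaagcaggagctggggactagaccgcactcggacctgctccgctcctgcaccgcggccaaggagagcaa

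Gcg held CAGATG at 2 places, starting 139 and 83 bases before the RefSeq start. Sct held CAGATG at 242 and CAGCTG at 132 bases before its RefSeq start, and Tac1 held CAGATG at 173 bases before. Tac1 as counted begins at 7554879, within its window, so this CAGATG lies inside the counted gene. All 10 members had a window in the table (11 windows, since Pyy had 2 starts), and 8 members held at least 1 of the hexamers. Pyy and Sst held neither. Of all 32851 promoter windows of the same length, 30.6% held at least 1, 16.3% CAGCTG and 17.2% CAGATG. These matches describe letters only, and binding was not measured in these libraries.

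All 10 members are protein-coding genes, and no other gene of the count files overlapped any of them on either strand. Chga (ENSMUSG00000021194) lies on chromosome 12 from 102554969 to 102565027 and Chgb (ENSMUSG00000027350) on chromosome 2 from 132781278 to 132795079. Gcg (ENSMUSG00000000394) is on chromosome 2 from 62474530 to 62483650, Sct (ENSMUSG00000038580) on chromosome 7 from 141278331 to 141279133 and Tac1 (ENSMUSG00000061762) on chromosome 6 from 7554879 to 7565834. Cck (ENSMUSG00000032532) is on chromosome 9 from 121489825 to 121495689, Gip (ENSMUSG00000014351) on chromosome 11 from 96024545 to 96030831, and Pyy (ENSMUSG00000017311) on the same chromosome from 102106676 to 102107832. Sst (ENSMUSG00000004366) is on chromosome 16 from 23889581 to 23890844 and Nts (ENSMUSG00000019890) on chromosome 10 from 102481760 to 102490418. These positions are those of the count files, in GRCm38.

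Libraries held between 36 M and 65.8 M counts in total. Levels are given as counts per M (CPM) scaled by the trimmed mean of M values (TMM) over all 24 libraries, and fold changes come from edgeR's quasi-likelihood test, with a gene called when its Benjamini-Hochberg adjusted p over all genes tested was under 0.05. Atoh1 itself (chromosome 6, 64729146 to 64731233) was at 92.3 ± 15.5 CPM in WT and 75.0 ± 11.04 in 9S/T-A SI libraries (SD, n = 6), and at 102.9 ± 15.7 and 85.9 ± 13.7 in the colon groups, and was called in none of the 5 comparisons. Scaling mattered between tissues. With library totals in place of TMM the median log2 fold change of all genes between colon and SI moved to 0.74 in WT and 0.85 in 9S/T-A, and the called genes split into 12241 higher and 1903 lower in WT, against 5625 and 5169 with TMM, and into 12546 and 1653 in 9S/T-A, against 5576 and 4743. Between genotypes in SI the same change moved the median to −0.11 and the split from 168 higher and 147 lower to 78 and 190. The libraries labelled 9S/T-A SI number 2 and 9S/T-A colon number 3 stood apart from the rest of their groups. The former held transcripts of pancreatic acinar enzymes, with 5 genes (Prss2, Cpa1, Cela2a, Cel and Pnlip) between 0.944 and 2.36 CPM, and the latter was the highest 9S/T-A colon library in 8 of the 10 members.

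In WT SI the most abundant hormone transcript was Sct, which encodes secretin, a hormone that stimulates pancreatic bicarbonate secretion. Per kb of exon it stood at 178.0 ± 21.3 CPM (SD, n = 6), above Chgb, the granule protein chromogranin B, at 76.0 ± 23.5 and Chga, chromogranin A, at 23.8 ± 8.28. No WT SI library of Sct reached down to the highest of Chgb, and none of Chgb to the highest of Chga. Below them came Cck, the gallbladder-contracting and satiety hormone cholecystokinin, at 15.85 ± 3.19 CPM per kb, Gip, glucose-dependent insulinotropic peptide, at 11.1 ± 3.01, and Sst, the inhibitory hormone somatostatin, at 10.04 ± 1.74, with library ranges that overlapped from Chga to Sst. Gcg, whose product is cut to glucagon-like peptides in the gut, was at 4.08 ± 1.81, Nts, neurotensin, at 2.61 ± 2.98, Tac1, which encodes substance P, at 2.30 ± 0.961 and Pyy, the appetite-lowering peptide YY, at 1.29 ± 0.586 CPM per kb. These last 4 overlapped with their neighbours, and Gcg lay below Sst without overlap.

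The order was different in the other groups. In 9S/T-A SI, Sct led with 393.7 ± 75.8 CPM per kb, again without overlap with Chgb at 60.0 (libraries from 40.4 to 88.0). From Sct to Sst the order of means was that of WT SI, and from Chgb down each member overlapped the next. Gcg had the lowest mean of the 10 at 0.648 ± 0.204, with a library range that overlapped those of Tac1, Nts and Pyy. In WT colon, Chgb (17.8 ± 4.76), Chga (11.5 ± 2.75), Sct (10.55 ± 4.60), Pyy (9.95 ± 3.51) and Gcg (9.27 ± 3.77 CPM per kb) formed a run in which each neighbour overlapped the next. In 9S/T-A colon, Sct came first at 19.7 ± 3.82 CPM per kb, ahead of Chgb at 11.75 ± 4.68 and Chga at 7.40 ± 2.17, with overlapping ranges. Gip was last in both colon groups, below every library of the member before it.

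**Figure D1:**
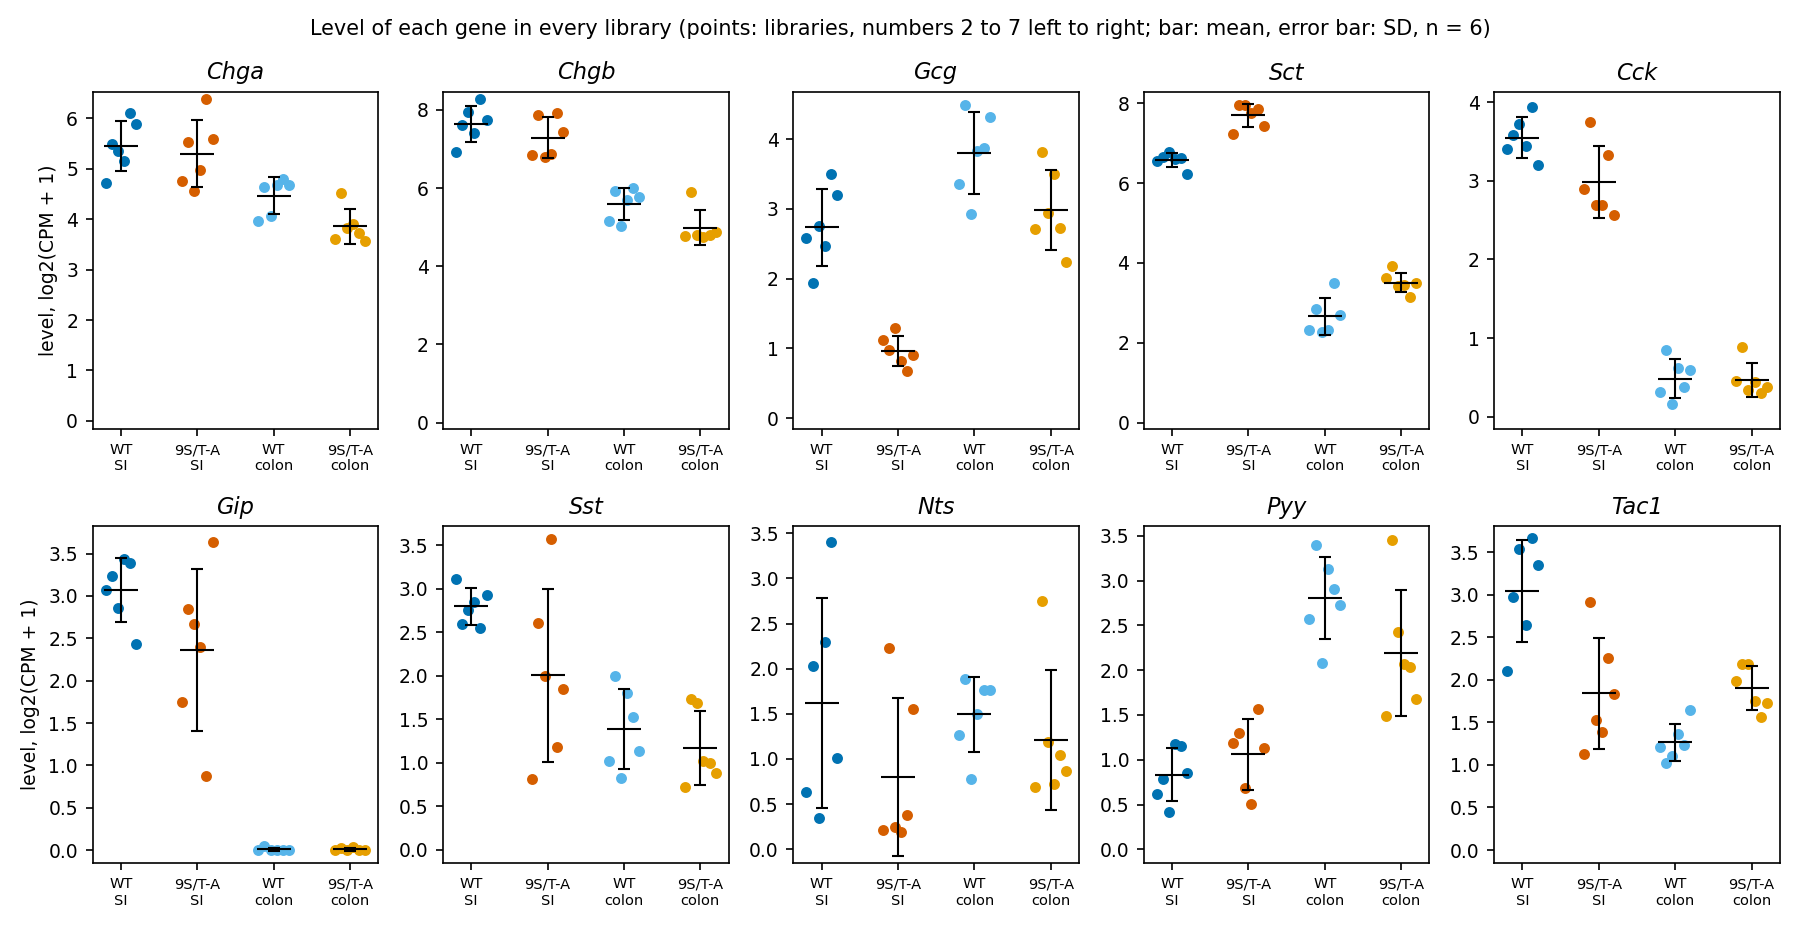
Level of each of the 10 genes in every library, as log2(CPM + 1), with 1 panel per gene, points for the 6 libraries of a group, a bar for the mean and an error bar for the SD. Gcg in 9S/T-A SI (0.595 to 1.44 CPM) and Sct in 9S/T-A SI (150.6 to 247.5 CPM) lie apart from their WT SI libraries, and Gip is at or near 0 in both colon groups.

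Expressed as a share of the summed CPM per kb of the 10 genes in a library, the make-up differed by tissue and genotype. Of this sum Sct took 55.2 ± 6.45% in SI of WT and 78.1 ± 5.04% in SI of 9S/T-A (SD, n = 6), and 16.3 ± 4.24% in WT colon and 37.0 ± 6.45% in 9S/T-A colon. The lowest 9S/T-A library was above the highest WT library in both tissues (72.7% against 63.4% in SI, and 27.8% against 23.4% in colon). Chga and Chgb together with Gcg and Pyy filled most of the rest in WT colon, with 18.1 ± 2.17%, 27.8 ± 1.19%, 14.1 ± 2.92% and 15.3 ± 2.74%. The sum itself was 325.1 ± 44.9 CPM per kb in SI of WT and 505.0 ± 96.4 in SI of 9S/T-A, and it was 64.6 ± 18.7 and 55.5 ± 19.7 in the colon of WT and 9S/T-A. Shares of a sum move together by construction, so they are given as a description with no test.

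**Figure D2:**
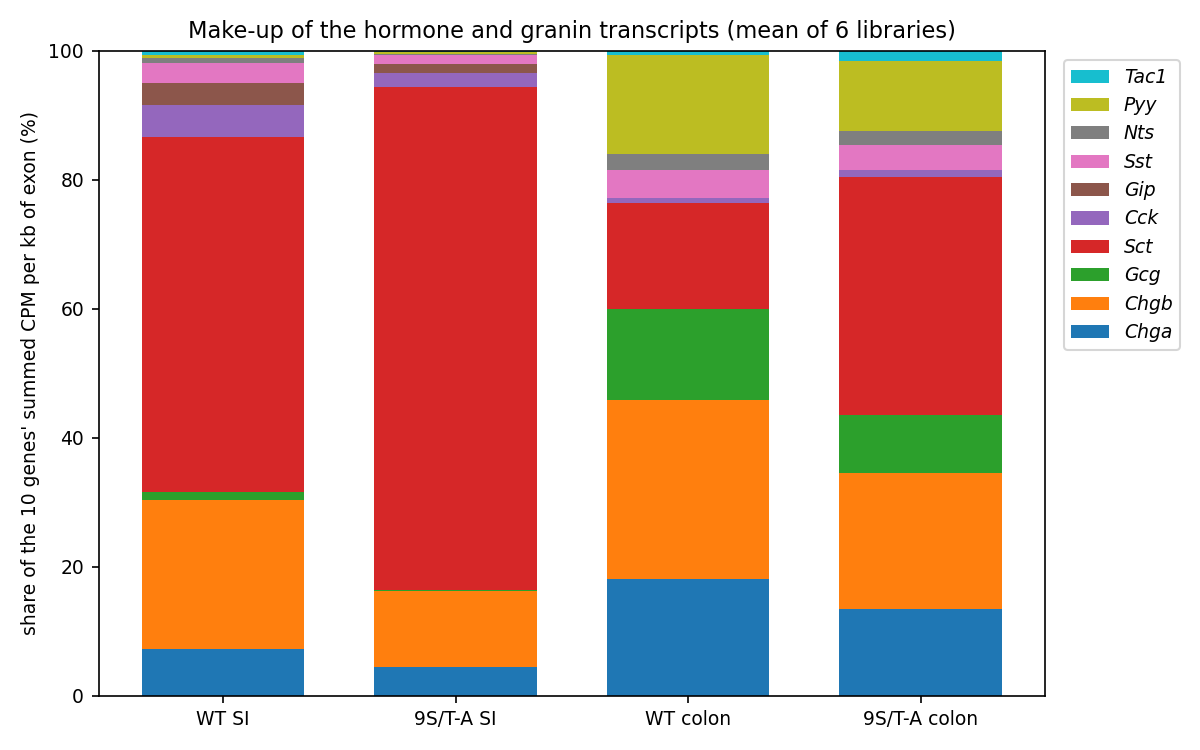
Stacked bars of each gene's share (%) of the 10 genes' summed CPM per kb of exon, as the mean of the 6 libraries of a group. The Sct segment is larger in 9S/T-A than in WT in both SI (78.1% against 55.2%) and colon (37.0% against 16.3%), and Gcg and Pyy are visible segments in colon.

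The comparison of 9S/T-A with WT in SI asked whether the altered ATOH1 came with other hormone levels in the sorted cells. Gcg was lower and Sct higher in 9S/T-A, and edgeR called none of the other 8, while DESeq2 also called Tac1 (log2 fold change −1.42, adjusted p = 0.0395). Of the 10 tested, 2 (1 higher, 1 lower) were called, while 1.94% of all 16236 genes tested were called, 1.03% as higher and 0.905% as lower. DESeq2 called 788 of all 17675 genes it tested. The same 2 members had libraries that did not overlap between genotypes, which held for 2.07% of all genes tested. The median log2 fold change of the 10 was −0.58, against 0.00 for all genes tested. In bulk libraries such as these, fewer cells of a type and less RNA per cell cannot be told apart.

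Gcg in WT SI had a lowest, median and highest library of 2.84, 5.37 and 10.3 CPM. In 9S/T-A SI the same values were 0.595, 0.918 and 1.44 CPM. Every 9S/T-A library was below every WT library. The fall was 6.29-fold (log2 fold change −2.65, SE 0.30, adjusted p = 0.000227), and leaving out each library in turn gave log2 values from −2.80 to −2.44, called each time. These are low levels, resting on 27 to 62 counts per 9S/T-A SI library and 110 to 469 per WT SI library.

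Sct moved the other way. Its lowest, median and highest library were 74.5, 97.3 and 109.1 CPM in WT SI. In the 9S/T-A SI libraries they were 150.6, 222.8 and 247.5 CPM. Again no library of either genotype reached into the other group. The rise was 2.21-fold (log2 fold change 1.14, SE 0.13, adjusted p = 0.000198), with a range of 1.08 to 1.22 when single libraries were left out. The counts behind it were 2334 to 4824 per WT library and 5742 to 10892 per 9S/T-A library.

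Tac1, a product of many serotonin-producing enterochromaffin cells, did not pass edgeR's test in SI (log2 fold change −1.42, SE 0.39, adjusted p = 0.0862), but passed with DESeq2 (adjusted p = 0.0395) and in edgeR with sex as a covariate (−1.47, adjusted p = 0.0271). Its lowest, median and highest library were 3.29, 8.02 and 11.8 CPM in WT and 1.18, 2.22 and 6.54 CPM in 9S/T-A. All 6 of the 9S/T-A libraries lay below the WT mean of 7.83 CPM, and the groups overlapped, since 9S/T-A numbers 3 and 6 lay above the lowest WT library and WT numbers 2 and 5 below the highest 9S/T-A library. Without 9S/T-A SI number 3 the log2 fold change was −1.83 (adjusted p = 0.0207), and without WT SI number 2 it was −1.58 (adjusted p = 0.0477). Cck also depended on 9S/T-A SI number 3, with −0.58 (SE 0.22, adjusted p = 0.205) in the full comparison and −0.80 (adjusted p = 0.0439) without it. Leaving out that library thus raised the members called from 2 to 4.

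The remaining members spread widely within groups. Chga was at 44.8 ± 15.6 CPM in WT and 42.3 ± 21.9 in 9S/T-A (log2 fold change −0.09, SE 0.30, adjusted p = 0.922), and Chgb at 208.2 ± 64.4 and 164.4 ± 60.3 (−0.35, SE 0.24, adjusted p = 0.53). The chromogranins, carried by most enteroendocrine cell types, thus had differences smaller than the SD within either group. Gip ranged from 4.41 to 9.84 CPM in WT and from 0.829 to 11.5 in 9S/T-A (−0.59, adjusted p = 0.544), Sst from 4.85 to 7.64 and from 0.760 to 10.9 (−0.63, adjusted p = 0.547), and Nts from 0.272 to 9.58 and from 0.140 to 3.70 (−1.52, SE 0.88, adjusted p = 0.435). The Nts value was −2.44 without 9S/T-A number 3 and −0.72 without WT number 6, and called in neither case. Pyy had a median of 0.761 CPM in WT and 1.24 in 9S/T-A (0.51, adjusted p = 0.549). For Gip and Sst the 9S/T-A range enclosed the WT range on both sides.

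In colon none of the 9 members tested was called between genotypes by edgeR, with 0.318% of all 16997 genes called. An unadjusted p under 0.05 was reached by 5 of the 9 (Chga, Chgb, Gcg, Sct and Tac1), and DESeq2 called 2, Sct (adjusted p = 0.00619) and Tac1 (adjusted p = 0.000638). With the library number as a replicate block, an alternative only, edgeR called 4 (Chga, Chgb, Sct and Tac1). Over all genes, 1497 of 16997 had an unadjusted p under 0.05, DESeq2 called 238 of 21114, and the block called 385 of 16997. No member had libraries without overlap, against 0.906% of all genes tested. Gip was not tested, since it had 2 counts in all WT colon libraries together and 3 in all 9S/T-A colon libraries. The median log2 fold change of the 9 was −0.35, against 0.00 for all genes.

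Sct had a lowest, median and highest library of 3.83, 4.75 and 10.2 CPM in WT colon and 7.89, 10.1 and 14.1 CPM in 9S/T-A colon. The log2 fold change was 0.92 (SE 0.23, adjusted p = 0.14), and all 6 of the 9S/T-A libraries lay above the WT mean. WT number 6 alone reached into the 9S/T-A range, and without it the difference was 1.18 (adjusted p = 0.00997). Tac1 was at 1.03, 1.33 and 2.12 CPM in WT colon and at 1.95, 2.67 and 3.55 CPM in 9S/T-A colon (log2 fold change 0.97, SE 0.20, adjusted p = 0.0627). Here WT number 7 was the library in the overlap, and without it the difference was 1.14 (adjusted p = 0.015).

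Both chromogranins and both L cell hormones had lower means in 9S/T-A colon, none of them called without the block. Chga was at 21.6 ± 5.17 CPM in WT and 13.9 ± 4.09 in 9S/T-A (log2 fold change −0.62, SE 0.19, adjusted p = 0.292), Chgb at 48.9 ± 13.1 and 32.2 ± 12.8 (−0.59, adjusted p = 0.44) and Gcg at 13.9 ± 5.63 and 7.50 ± 3.50 (−0.87, adjusted p = 0.395). Pyy was at 6.28 ± 2.21 and 4.11 ± 3.01 CPM (−0.60, adjusted p = 0.744). In each of these genes 9S/T-A number 3 was the highest library of its group. Without that library Chga was at −0.79 (adjusted p = 0.0681) and Chgb at −0.83 (adjusted p = 0.0646). Sst (−0.35), Nts (−0.17) and Cck (−0.06) had adjusted p values of 0.956 or more.

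**Figure D3:**
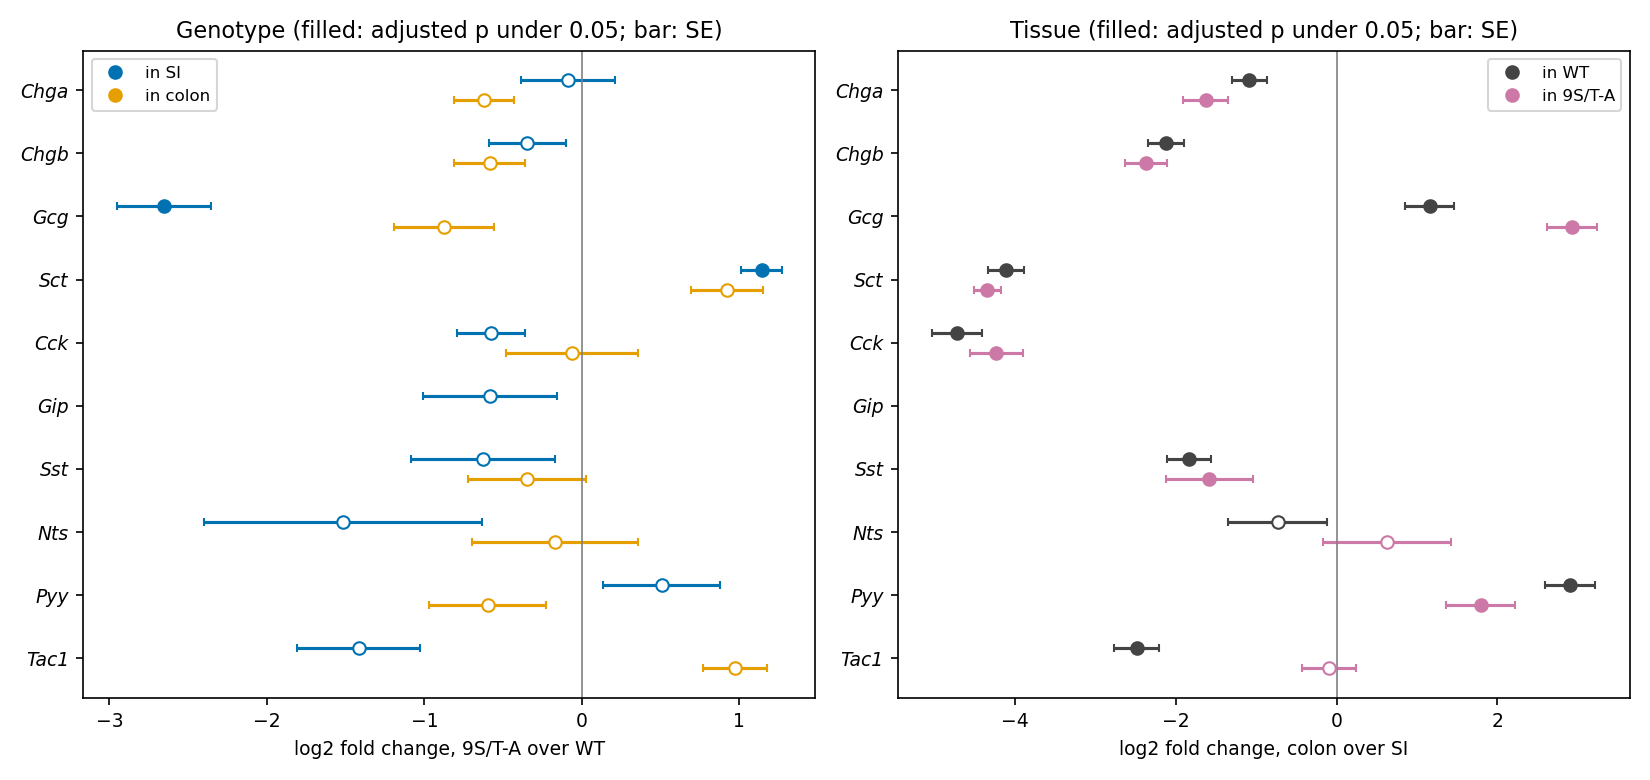
Log2 fold changes of the 10 genes with their SE, between genotypes (left, 9S/T-A over WT, in SI and in colon) and between tissues (right, colon over SI, in WT and in 9S/T-A), filled where the adjusted p was under 0.05. Only Gcg (−2.65) and Sct (1.14) are filled on the left, both in SI, while on the right 8 genes are filled in WT and 7 in 9S/T-A, and Gip, which had at most 3 counts per colon group, is left out on the right and untested in colon on the left.

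A ratio between 2 genes of the same library does not depend on how the library is scaled. The ratios to Chgb were chosen after the values above were seen and are given with no test. The log2 ratio of Sct to Chgb was −1.08 ± 0.47 in SI of WT and 0.41 ± 0.50 in SI of 9S/T-A (SD, n = 6), and −3.16 ± 0.34 and −1.56 ± 0.30 in the colon groups. In both tissues every 9S/T-A library was above every WT library. Chgb itself had a lower mean in 9S/T-A colon (log2 fold change −0.59, adjusted p = 0.44, edgeR). The levels of Sct and of Tac1 overlapped between genotypes in colon. Over Chga in place of Chgb, Sct was also higher in 9S/T-A, but in SI the libraries overlapped (0.36 to 1.88 in WT and 1.496 to 3.45 in 9S/T-A). Gcg over Chgb was −5.16 ± 0.55 in SI of WT and −7.39 ± 0.88 in SI of 9S/T-A, without overlap, and −1.88 ± 0.34 and −2.16 ± 0.51 in colon, with overlap. Tac1 over Chgb went in opposite directions in the tissues, from −4.80 ± 0.27 in WT to −5.98 ± 0.48 in 9S/T-A in SI, and from −5.09 ± 0.50 to −3.50 ± 0.41 in colon. In SI the Tac1 ratio of 9S/T-A number 3 (−5.15) lay within the WT range, and in colon the genotypes did not overlap.

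**Figure D4:**
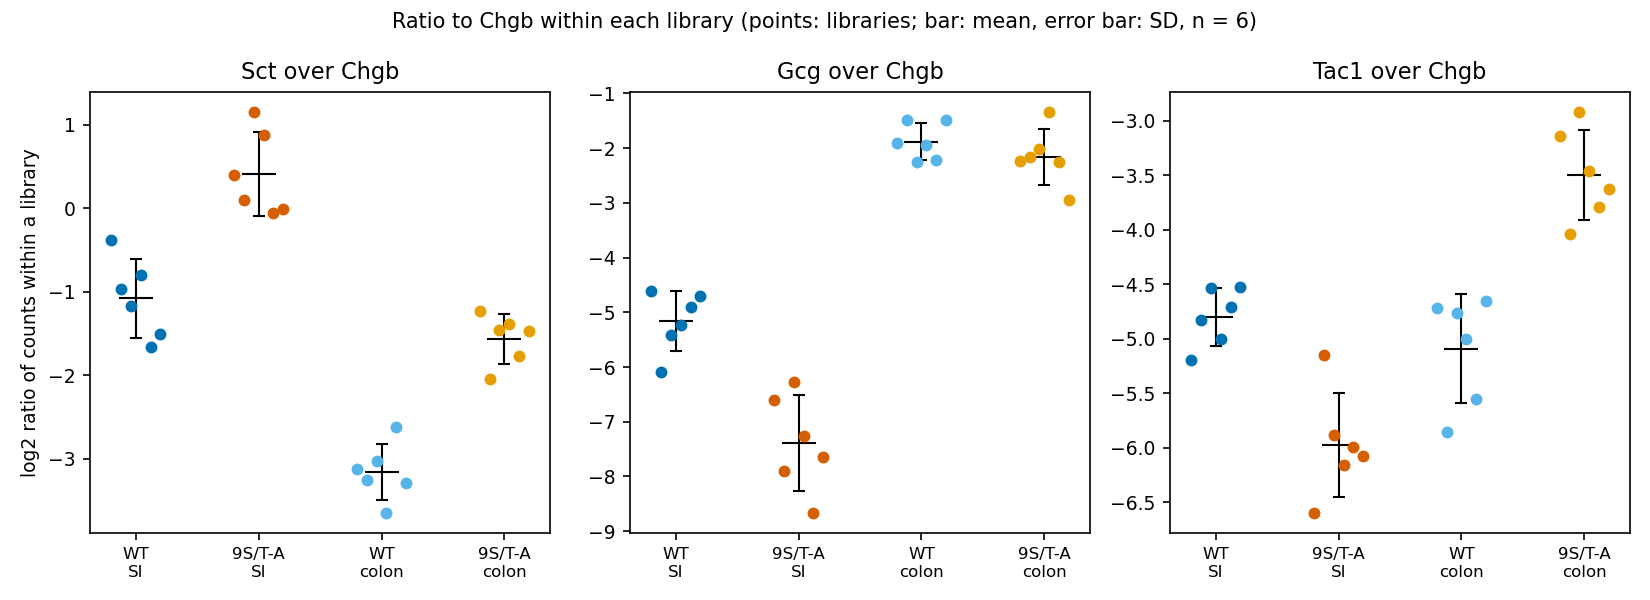
Log2 ratio of Sct, Gcg and Tac1 to Chgb within each library, by group, with the mean and SD. Sct over Chgb is higher in 9S/T-A in both tissues, Gcg over Chgb is lower in 9S/T-A SI, and Tac1 over Chgb is lower in 9S/T-A SI but higher in 9S/T-A colon.

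Whether the genotype difference itself differed between SI and colon was tested with a product term over all 24 libraries. By edgeR Tac1 was the only member called, 1 of 10, with 0.412% of all 17953 genes called. Its difference of 9S/T-A from WT was 2.37 log2 units higher in colon than in SI (SE 0.47, adjusted p = 0.0155), and leaving out each library in turn gave 2.22 to 2.78, called each time. With genotype and number together as a replicate block it was 2.45 (adjusted p = 0.00819). Gcg had a product term of 1.77 (SE 0.46, adjusted p = 0.101, and 0.0515 with the block), and DESeq2 called it as well (1.76, adjusted p = 0.0102). Over all genes DESeq2 called 258 of 17331 for this term. Sct, raised in SI and not called in colon, had −0.24 (SE 0.27, adjusted p = 0.89), so its genotype difference was not shown to differ between the tissues. The other 7 members had adjusted p values of 0.533 or more.

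Libraries of the same genotype and number can be set against each other for this gene. Colon minus SI of Tac1, as log2(CPM + 1), had a lowest, median and highest value of −2.44, −1.83 and −0.89 in the 6 WT pairs and of −0.73, 0.13 and 0.87 in the 6 9S/T-A pairs. All 6 WT pairs were lower in colon, whereas 3 of the 9S/T-A pairs were higher and 3 lower. The same difference for Gcg was 0.16, 0.95 and 2.55 in WT and 1.34, 1.86 and 2.84 in 9S/T-A, higher in colon in all 12 pairs with overlapping ranges.

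**Figure D5:**
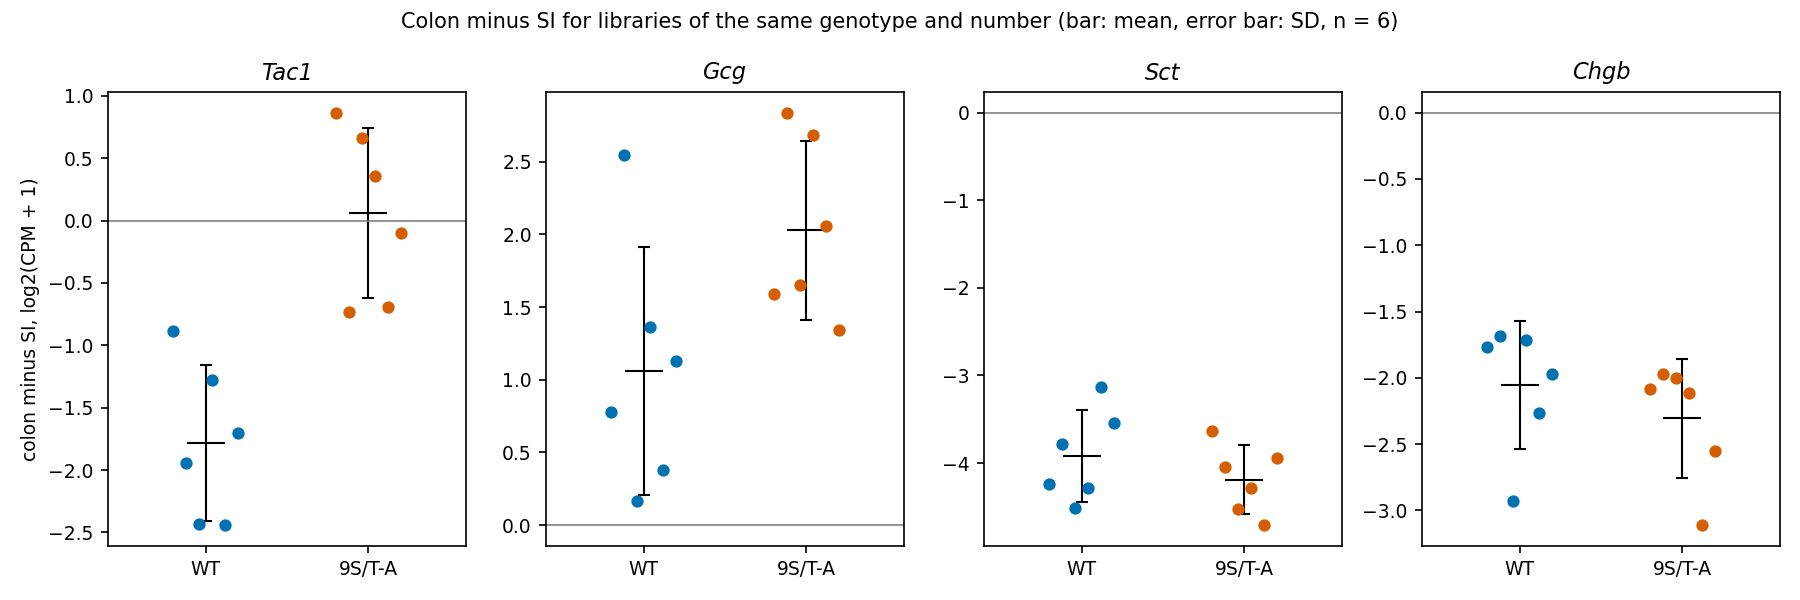
Colon minus SI, as log2(CPM + 1), for libraries of the same genotype and number, in Tac1, Gcg, Sct and Chgb, with the mean and SD of 6 pairs. The Tac1 pairs are between −2.44 and −0.89 in WT and between −0.73 and 0.87 in 9S/T-A, whereas the genotypes overlap in the other 3 genes.

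Between tissues most members were called. In WT, 9 of the 10 were called, where 63.6% of all 16979 genes were, and 2 were higher in colon (33.1% of all genes) and 7 lower (30.4%). In 9S/T-A, 8 of the 10 were called, where 60.9% of all 16938 genes were, with 2 higher (32.9%) and 6 lower (28%). Libraries of SI and colon did not overlap for 7 members in WT (43.5% of all genes) and 6 in 9S/T-A (41.1%). The median log2 fold change of the members was −1.98 in WT and −1.61 in 9S/T-A, against 0.03 and 0.04 for all genes tested. Both contrasts were made within a genotype and share no library.

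Gcg and Pyy, the hormones of L cells, were the 2 that were higher in colon. Pyy rose from a lowest, median and highest library of 0.339, 0.761 and 1.26 CPM in WT SI to 3.24, 6.08 and 9.56 in WT colon (log2 fold change 2.91, SE 0.31, adjusted p = 8.1e-07), without overlap. In 9S/T-A it rose from 0.420, 1.24 and 1.96 CPM to 1.81, 3.15 and 9.97 (1.79, SE 0.43, adjusted p = 0.00198), with overlap. Gcg rose from 5.37 to 13.4 CPM at the median in WT (1.15, SE 0.31, adjusted p = 0.00409), with overlap, and from 0.918 to 6.16 in 9S/T-A (2.92, SE 0.31, adjusted p = 8.55e-07), without overlap.

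Gip was the member with the largest gap between the tissues. It had 1936 counts over the 6 WT SI libraries and 2 over the 6 WT colon libraries, a ratio of 1545 in depth-scaled counts (95% exact interval from counting error, 427.1 to 12760). In 9S/T-A the counts were 1362 and 3, a ratio of 753.2 (257.2 to 3657). Both WT colon counts were in number 3, and without that library the WT ratio was at least 863.4, with the colon set to 3 counts over the group. Without 9S/T-A colon number 5, which held 2 of the 3 counts, the ratio there was 1878 (336.6 to 74250). On library totals the ratios were 960.3 and 440.5. Cck fell from 10.9 ± 2.18 to 0.417 ± 0.245 CPM in WT (log2 fold change −4.73, SE 0.31, adjusted p = 3.02e-09) and from 7.30 ± 2.91 to 0.396 ± 0.227 in 9S/T-A (−4.23, SE 0.33, adjusted p = 3.18e-08). Sct fell by 4.11 log2 units in WT (SE 0.23) and by 4.35 in 9S/T-A (SE 0.17), both without overlap.

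The chromogranins fell less than Gip, Cck and Sct in both genotypes. Chgb fell by 2.12 log2 units in WT (SE 0.22, adjusted p = 5.91e-07) and by 2.38 in 9S/T-A (SE 0.26, adjusted p = 1.43e-06), and Chga by 1.08 (SE 0.22, adjusted p = 0.000459) and 1.63 (SE 0.28, adjusted p = 0.000136). Sst, which restrains the release of other gut hormones, fell by 1.83 (SE 0.28, adjusted p = 2.97e-05) and 1.58 (SE 0.54, adjusted p = 0.0188). The last of these calls rested on 9S/T-A SI number 5, whose 10.9 CPM was the highest of its group, and without it the value was −0.95 (adjusted p = 0.0838). Tac1 fell by 2.49 in WT (SE 0.28, adjusted p = 1.59e-06), and its value in 9S/T-A was −0.10 (SE 0.34, adjusted p = 0.815). Nts was not called in either genotype (−0.74, adjusted p = 0.315 in WT, and 0.62, adjusted p = 0.521 in 9S/T-A), and the sign changed without WT SI number 6 (0.09) or without 9S/T-A colon number 3 (−0.31). With library totals as the scale, Chga in WT (−0.38, adjusted p = 0.152) and Sst in 9S/T-A (−0.76, adjusted p = 0.179) were no longer called, and the shift of all genes described above applies to every tissue value.

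Genes that act with the hormones were read from lists written by hand. The following all-gene counts between genotypes apply to every list below. An unadjusted p under 0.05 was reached by 2556 of 16236 genes in SI and 1497 of 16997 in colon. DESeq2 called 788 of 17675 in SI and 238 of 21114 in colon. Of 17 genes of hormone processing and secretory granules, 0 were called between genotypes by edgeR in SI (17 tested, 5 with an unadjusted p under 0.05) or colon (15 tested, 3), and DESeq2 called 1 in SI and 0 in colon. That gene was Scgn, the calcium sensor secretagogin, at −1.41 in SI by edgeR (adjusted p = 0.0537), named here after its value was seen. By edgeR it was called without 9S/T-A SI number 3 and, with Pam, without WT SI number 2, and in colon Cpe was called without 9S/T-A number 3. Between tissues 11 of 16 tested were called in WT (1 higher, 10 lower) and 13 of 17 in 9S/T-A (1 higher, 12 lower), with medians of −1.49 and −1.76, where 63.6% and 60.9% of all genes were called. The higher gene was Pam, the enzyme that amidates peptide hormones, which rose from 7.58 ± 1.43 to 33.1 ± 5.18 CPM in WT (log2 fold change 2.09, SE 0.14, adjusted p = 3.1e-09) and by 2.42 in 9S/T-A (SE 0.13). Syt13, a synaptotagmin, fell by 1.74 in WT and 2.07 in 9S/T-A, Scgn fell by 2.05 in WT, and Cpe, the carboxypeptidase that trims prohormones, fell by 1.76 in 9S/T-A.

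Of 11 genes of other gut hormones and the serotonin pathway, 5 were tested between tissues in each genotype and all 5 were called, 1 higher in colon and 4 lower, against the same 63.6% and 60.9% of all genes. Ghrl, ghrelin, fell from 11.9 ± 4.18 to 0.257 ± 0.140 CPM in WT (−5.57, SE 0.34, adjusted p = 1.23e-09), and in 9S/T-A it fell by 4.78. Tph1, the rate-limiting enzyme of serotonin synthesis in the gut, fell by 2.35 and 3.14, and Slc18a1, a vesicular monoamine transporter, by 3.02 and 3.00. The gene that rose was Insl5, a hormone of colonic L cells, with 4 counts in all WT SI libraries and 2.94 ± 1.37 CPM in WT colon. Between genotypes 0 of 4 tested in SI and 0 of 6 in colon were called by edgeR (1 and 0 with an unadjusted p under 0.05), with Ghrl at −1.21 in SI (adjusted p = 0.0588). DESeq2 called Ghrl in SI and 0 of the list in colon, and edgeR called Ghrl without 9S/T-A SI number 3 or without WT SI number 2.

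The enteroendocrine transcription factors, a list of 19, had log2 fold changes below 0 for 14 of 17 tested between genotypes in SI, with a median of −0.82, and for 18 of 19 in colon, with a median of −0.44. None was called in either tissue by edgeR, although unadjusted p values fell under 0.05 for 13 of them in SI and for 6 in colon. Of all genes tested, 2556 of 16236 in SI and 1497 of 16997 in colon fell under 0.05. DESeq2 called 5 in SI (1 higher, 4 lower) and 1 in colon, against 788 of 17675 and 238 of 21114 genes. With the replicate block, an alternative only, edgeR called 1 higher and 8 lower in SI and 2 lower in colon. Over all genes the block called 477 of 16236 and 385 of 16997. With single libraries left out edgeR called up to 2 in SI, Insm1 and Pdx1 without WT number 2, Pdx1 without 9S/T-A number 7 and Rfx3 without WT number 5. Neurog3, which commits progenitors to the endocrine fate, was at 27.4 ± 13.3 CPM in WT and 15.5 ± 5.58 in 9S/T-A among the SI libraries. Insm1 (−1.16, adjusted p = 0.0689), Pax6 (−1.05, adjusted p = 0.0824) and the duodenal and endocrine factor Pdx1 (0.63, adjusted p = 0.0899) were, with Rfx3 (−0.48, adjusted p = 0.0699), the 4 with the smallest adjusted p in SI, named after their values were seen. Between tissues 17 of 19 were called in WT (3 higher, 14 lower, against 63.6% of all genes called) and 16 of 18 in 9S/T-A (2 higher, 14 lower, against 60.9%), led by Pdx1, which fell by 5.02 and 6.25, and Neurog3, which fell by 3.28 and 2.82.

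Nutrient sensors were called between genotypes in neither tissue (0 of 7 tested in SI and 0 of 6 in colon by edgeR, with 2 and 0 at an unadjusted p under 0.05, and 1 and 0 called by DESeq2). In colon against SI, 3 rose and 4 fell of 8 tested in WT, and 4 rose and 2 fell of 6 in 9S/T-A, where 63.6% and 60.9% of all genes were called. Abcc8, the sulfonylurea receptor, rose by 2.099 and 3.24, Ffar2, a receptor of short-chain fatty acids, by 1.51 and 1.33, and Slc5a1, the glucose transporter SGLT1 that is also abundant in absorptive cells, fell by 1.22 and 1.36. Of 21 receptors of the hormones, 6 (Sctr, Cckbr, Ntsr1, Npy4r, Npy5r and Tacr3) had no count in any library, and at most 7 were tested in any comparison of 2 groups. None was called between genotypes by edgeR (1 in each tissue had an unadjusted p under 0.05) or by DESeq2. Between tissues 4 of 7 receptors tested were called in WT (3 higher, against 63.6% of all genes called) and 5 of 6 in 9S/T-A (3 higher, against 60.9%), among them the somatostatin receptor Sstr2, which fell by 0.74 in 9S/T-A (SE 0.21, adjusted p = 0.00585).

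Markers of other cells were summed over each list. The sort on EpCAM and tdTom was for epithelial cells, but leukocyte transcripts were counted in SI. In WT SI, Ptprc was at 5.37 ± 2.64 CPM and Cd3g at 4.62 ± 1.80. In WT colon they were at 0.572 ± 0.327 and 0.085 ± 0.052 CPM. The 9 leukocyte markers summed to 2336 ± 359.5 CPM in WT SI, nearly all from Lyz2 (2318 ± 361.7), and to 8.67 ± 1.27 in WT colon. Of 5 tested between tissues, 4 were called lower in colon in WT and in 9S/T-A, against 30.4% and 28% of all genes. Itgam went the other way (0.24, not called, in WT, and 0.62, adjusted p = 0.00627 by edgeR, in 9S/T-A). The source of these transcripts was not tested. Islet cells of the pancreas also make Gcg, Sst and Pyy. The insulin genes Ins1 and Ins2, the only islet markers on the list, had no count in any of the 24 libraries. Acinar enzymes appeared in 9S/T-A SI number 2, as given above, and Gcg and Sct were called without that library too. The part of pancreatic cells in the hormone values was not tested. Enteric neurons also make Tac1, Nts and Cck. In SI the summed level of 14 neuron and glia markers was 5.72 to 12.6 CPM in WT and 7.26 to 9.48 in 9S/T-A, and in colon it was 2.84 to 5.01 and 2.71 to 4.72. Most of it came from Ret, at 6.73 ± 1.92 CPM in WT SI, and the defining genes Npy and Sox10 had no count in any library. None of the 3 and 2 markers tested was called between genotypes in SI and colon by edgeR (1 and 0 at an unadjusted p under 0.05), and DESeq2 called 1 in SI, Tubb3, and 0 in colon.

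Among markers of other epithelial lineages, some tuft and Paneth cell genes were called between genotypes in SI, where 1.94% of all genes were called. Of 8 tuft cell markers 2 fell (Pou2f3 by 1.18, SE 0.24, adjusted p = 0.0197, and Gfi1b, named after its value was seen, by 1.76, adjusted p = 0.00637), with a summed level of 71.1 to 166.4 CPM in WT and 23.6 to 143.5 in 9S/T-A. The tuft count was 5 without 9S/T-A number 7, and 1 without 9S/T-A number 4, 9S/T-A number 5 or WT number 4. Of 8 Paneth cell markers 3 fell, Mmp7 by 1.25, Ang4 by 1.11 and Itln1 by 0.98 (sums of 60300 to 102200 CPM in WT and 48840 to 76440 in 9S/T-A). DESeq2 called 3 tuft markers and 5 Paneth markers in SI, all lower. None of 8 goblet cell markers (315000 to 443000 and 320300 to 507900 CPM), 10 absorptive markers (2989 to 6003 and 4382 to 7095 CPM) and 7 stem cell markers (847.5 to 1202 and 647.6 to 1141 CPM) was called in SI by edgeR, with 2, 3 and 2 at an unadjusted p under 0.05, and DESeq2 called 0, 2 and 1. By edgeR 1 absorptive marker was called without WT number 5 and 1 stem marker without 9S/T-A number 2. In colon, where 0.318% of all genes were called, 1 goblet marker rose, Spink4 by 0.68 (SE 0.12, adjusted p = 0.0287). Spink4 was not called without WT number 2, 4, 5 or 7 or without 9S/T-A number 4 or 5. Muc2 was called as well without 9S/T-A number 7, and DESeq2 called both genes. By both edgeR and DESeq2, 0 of the tuft, Paneth, absorptive and stem markers were called in colon (1, 2, 1 and 0 at an unadjusted p under 0.05 in edgeR). Leukocyte markers (9 genes) and stromal markers (8 genes) had 0 calls between genotypes by edgeR in either tissue (5 and 2 tested in SI with 1 and 0 at an unadjusted p under 0.05, and 3 and 3 tested in colon with 1 and 1). DESeq2 called 1 leukocyte marker in SI, Itgam, which edgeR called without 9S/T-A number 2, and 0 of the others. The part of these lineages in the hormone values was not tested.

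The members also varied from library to library within groups, and the genes most like each of them were found by the correlation of log2(CPM + 1), centred on the 4 group means, over 24 libraries and 17953 genes. The libraries share numbers across groups and differ in depth, so these correlations are descriptions. Chga and Chgb were each other's nearest gene (Pearson r = 0.891). The somatostatin receptor Sstr5 was next for Chga (0.888) and Cpe for Chgb (0.875). For Tac1 the nearest were March4 (0.905), the endocrine transcription factor Isl1 (0.841) and Gng4 (0.839), and for Pyy the nearest was Insl5 (0.746). Without the library in which Pyy deviated most, Insl5 was at 0.594, below E430018J23Rik at 0.733. The nearest gene was 1810006J02Rik for Cck (0.814), Mst1 for Nts (0.805), Gm10157 for Sst (0.769) and Elfn1 for Gip (0.79). Among their nearest 3 genes Cck also had Btbd17 (0.793) and Nts had Cdk5r2 (0.793). Sct had Aup1 (0.815) and Gcg had Ikbip (0.659), the lowest leading value of the 10. Among pairs of members Chgb with Tac1 (0.747) and Cck with Chgb (0.734) followed Chga with Chgb, and Chga with Gip was the lowest at −0.228.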

How the data were processed

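RNA of EpCAM+ tdTom+ cells was sequenced in 24 libraries (single-end, TruSeq Stranded mRNA). Per the file headers and the submitters' processing notes, the authors aligned reads to GRCm38 with TopHat2 2.1.1 and deposited raw counts per gene from featureCounts 1.5.2, counted over exons by strand and from primary alignments, with reads that overlap several genes left out. The deposited counts carry no normalization. The authors used DESeq2 1.14.1. For 97.96% of the 45513 gene IDs a symbol was found in the GENCODE M21 annotation of GRCm38, where 5 of the 10 members had the same start and end.

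Here, genes were filtered with filterByExpr by group, scaled by TMM and tested with edgeR 4.0.16 (R 4.3.3, quasi-likelihood, two-sided), separately for genotype in each tissue, tissue in each genotype and their product over 24 libraries. The SE was the log2 fold change over the square root of F. Each list of other genes names up to 3 called genes with the largest change and a mean of at least 1 log2 CPM. The fits were tested on simulated data. Alternatives were DESeq2 1.42.0, its size factors, library totals, no filter, a mean of at least 10 counts, an adjusted p of 0.1, sex as a covariate, a replicate block and each library left out. The floor of a group with no count was 3 counts. Intervals cover counting error only.

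The labels do not say whether the numbers 2 to 7 mark mice. Within a genotype, SI and colon libraries that carry the same number deviated together from their group means in all 6 pairs. The correlations across 17953 genes were 0.168 to 0.568 in WT and 0.159 to 0.649 in 9S/T-A. A replicate block was therefore run as an alternative for tissue and product, and it changed no member's call there. Between tissues it moved Sst in 9S/T-A from −1.58 to −1.26 (adjusted p = 0.0104, edgeR). Nts moved from −0.74 to −0.18 in WT and from 0.62 to 1.01 in 9S/T-A (adjusted p = 0.723 and 0.0633, edgeR). Same-numbered WT and 9S/T-A libraries deviated together in 4 of 6 pairs in SI and 5 of 6 in colon. Where nothing says that libraries came from separate mice, p-values measure only the spread between these libraries. The members and lists were chosen with earlier results of these data known.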

Additional observations from a re-analysis of the deposited data

Results flagged for a closer look

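A gap test of the highest and lowest library was applied to 40 sets of 6 values (10 genes in 4 groups), of which chance would flag about 1 in 20. It marked 6 sets, each for number 3 of its group. In 9S/T-A colon, number 3 stood above the other 5 libraries, with a gap of 0.718 of the range in Chga (21.9 CPM against at most 14.01 in the others), 0.923 in Chgb (58.3 CPM), 0.776 in Cck (0.847 CPM), 0.87 in Nts (5.73 CPM) and 0.687 in Pyy (9.97 CPM). The same library was the highest of its group in 8 of the 10 members, and 9S/T-A SI number 3 was the highest in 4. Gip in WT colon was marked with a value of 1, since number 3 held 2 counts and the other libraries 0.

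Tac1 was marked because its genotype difference differed between the tissues, by 2.37 log2 units in the product term (adjusted p = 0.0155, edgeR), with a value of 2.70 (adjusted p = 0.00325) without both 9S/T-A libraries numbered 3 and of 2.19 (adjusted p = 0.0313) without both numbered 2. These pairs of libraries were chosen after seeing the data.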

How the results depend on the processing

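The count of members called held within 1.5 times of its value in both tissue comparisons under every alternative run (9 in WT, and 8 with library totals; 8 in 9S/T-A, and 7 with library totals), and over single libraries left out it was 9 to 9 in WT and 7 to 8 in 9S/T-A. In the genotype comparison in SI it was 2, rose to 3 with DESeq2, with sex as a covariate and at an adjusted p under 0.1 (Tac1 each time), and was 2 to 4 with single libraries left out. In colon it moved from 0 to 2 with DESeq2, to 1 without a filter, to 1 at an adjusted p under 0.1 and to 4 with the replicate block (Chga, Chgb, Sct and Tac1), and was 0 to 1 with single libraries left out. The numbers did not pair the genotypes by the rule used, so the block in these comparisons is an alternative only. With the block the SI count was 3, adding Tac1 (−1.53, adjusted p = 0.0139). Of the transcription factors the block called 9 in SI (1 higher, 8 lower) and 2 in colon, against 0 and 0 without it, and of the tuft markers 6 and 3, against 2 and 0. Over all genes it raised the calls from 315 to 477 in SI, from 54 to 385 in colon and from 74 to 342 for the product, and DESeq2 gave 788, 238 and 258. For the product the member count moved from 1 to 2 with DESeq2, which added Gcg (1.76, adjusted p = 0.0102), and stayed at 1 to 1 with single libraries left out. The block changed no other member's call.

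Signs turned only for values that were not called. Tac1 between tissues in 9S/T-A (−0.10) was 0.68 with library totals, 0.0581 with the block, 0.21 without both libraries numbered 3, and −0.26 to 0.30 with single libraries left out. Over single libraries left out, Chga between genotypes in SI ran from −0.39 to 0.0714, Cck in colon from −0.42 to 0.21, Nts in colon from −1.09 to 0.0125, Nts between tissues from −0.94 to 0.0898 in WT and from −0.31 to 1.55 in 9S/T-A, and Sct in the product from −0.34 to 0.0164. The causes were not tested. Gcg in 9S/T-A SI rests on 27 to 62 counts per library, which limits its precision.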
